A study of Mus musculus with 4 samples.

Results

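The small leucine-rich proteoglycans described here are the products of 8 genes, Dcn, Lum, Bgn, Fmod, Ogn, Aspn, Omd and Prelp, chosen by family membership out of 33696 genes counted. Their transcripts were followed by unique molecular identifiers (UMIs, each marking 1 captured RNA molecule) in nuclei from mouse brain, by cell type, fibroblast state, region and library. Brains carried a photothrombotic (PT) injury, a focal cortical lesion made by illuminating a circulating dye, and were taken at 21 days post-injury (dpi). A library labelled control (genotype label WT) was set beside a library labelled Cxcl12-cKO, with the genotype Col1a2(creER); Cxcl12(flox), in which an inducible Cre recombinase driven from Col1a2 acts in fibroblasts on a floxed Cxcl12 gene. Each library pooled tissue of 1 male and 1 female mouse, and its lesion and parenchyma nuclei carried separate tags, so that 4 matrices were read (lesion and parenchyma of each genotype). After filtering, 10972 nuclei of the control label and 10771 of the Cxcl12-cKO label remained. With 1 library per genotype no test between genotypes was possible, and every interval given below is a 95% interval of counting error only.

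These proteoglycans are secreted proteins built from leucine-rich repeats that bind fibrillar collagens and set fibril spacing and width in skin, tendon, cornea, bone and the meninges. Decorin (Dcn) and biglycan (Bgn) carry chondroitin or dermatan sulfate chains and also bind TGFβ, whereas asporin (Aspn), their closest relative, has an aspartate-rich end in place of such chains. Lumican (Lum), fibromodulin (Fmod), osteomodulin (Omd) and Prelp form the keratan sulfate type class, of which osteomodulin is known from mineralising bone, and osteoglycin (Ogn), also called mimecan, belongs to a further class. In the brain, decorin and lumican are known from the fibroblasts of the meninges and perivascular spaces, which are also a source of scar-forming fibroblasts.

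Of the family, Dcn and Lum are neighbours on chromosome 10, and Prelp and Fmod are neighbours on chromosome 1 in the RefSeq annotation of build GRCm38.p6. Aspn, Omd and Ogn follow each other on chromosome 13, in this order and on the same strand, between Ecm2 and Nol8, whereas Bgn lies on the X chromosome between Haus7 and Atp2b3. The bases upstream of the 3 adjacent genes are shown because their levels were compared across the same cells (RefSeq, GRCm38.p6, plus strand, 250 bases each ending just before the annotated start). The windows are chr13:49544193-49544442 for Aspn, chr13:49582212-49582461 for Omd and chr13:49607765-49608014 for Ogn. Both strands were searched for 4 motifs, and capitals mark the matches, save 1 overlapping match in the Ogn window. The first motif was TATAAA, the letters of the TATA box, a core promoter element. The second motif was the letters CCAAT, which the factor NF-Y is known to bind in many promoters. The third motif was TGTGGT, the core that Runx factors, regulators of bone cell differentiation, are known to bind. The fourth motif was TGACTCA, the site of the AP-1 factors Fos and Jun.
Aspn: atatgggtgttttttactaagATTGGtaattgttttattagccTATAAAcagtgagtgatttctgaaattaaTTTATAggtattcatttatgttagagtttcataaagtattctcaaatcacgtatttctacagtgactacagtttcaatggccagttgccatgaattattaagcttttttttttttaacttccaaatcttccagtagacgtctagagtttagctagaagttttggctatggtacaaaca
Omd: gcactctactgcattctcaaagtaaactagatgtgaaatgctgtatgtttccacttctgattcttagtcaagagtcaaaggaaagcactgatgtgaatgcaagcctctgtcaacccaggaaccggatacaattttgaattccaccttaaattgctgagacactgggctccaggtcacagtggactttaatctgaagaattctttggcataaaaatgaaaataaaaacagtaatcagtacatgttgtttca
Ogn: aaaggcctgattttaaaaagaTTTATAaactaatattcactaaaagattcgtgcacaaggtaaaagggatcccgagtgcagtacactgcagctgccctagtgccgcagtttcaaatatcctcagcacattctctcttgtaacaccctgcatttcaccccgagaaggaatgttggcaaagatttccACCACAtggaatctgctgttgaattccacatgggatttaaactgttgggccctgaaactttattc
The Aspn window held TATAAA 2 times, with first bases at -207 and, on the minus strand, at -178 from the start. It held CCAAT at -229, on the minus strand. The Ogn window held TATAAA at -229 and TGTGGT at -65, both on the minus strand. A plus-strand TATAAA overlaps that match at -229 and is neither marked nor counted. These are matches of letters, and whether any of them acts in a promoter was not tested. The Omd window held none of these letters. Over 32851 promoters of the same length, 12.4% held TATAAA, 33.8% CCAAT, 14% TGTGGT and 4.46% TGACTCA. No motif was found in all 3 windows. The promoter table held 6 of the 8 members.

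Lesion nuclei were shallow, with a median of 2962 UMIs under the control label and 2975 under the Cxcl12-cKO label, against 15915 and 16648 in the parenchyma, which was mostly neuronal. Values are therefore given as CPM, the UMIs of a gene summed over a group of nuclei and scaled to 1000000 UMIs of that group, and shares of nuclei with a UMI also after thinning each nucleus to 1000 UMIs. Both libraries held 47 barcode sequences in common, and 9.75% and 11.3% of lesion nuclei held UMIs of both sex-linked gene sets. The targeted gene was read before any other. Cxcl12 had 1513 UMIs (106 CPM) in lesional fibroblast-like nuclei under the control label and 3141 UMIs (215 CPM) under the Cxcl12-cKO label. The log2 ratio was 1.02 (0.93 to 1.11), and it was higher under the Cxcl12-cKO label in nuclei of the female and of the male mouse. Which part of the gene was deleted is not known from the labels or methods used, so 3′ counts do not check them, and directions below refer to the libraries as labelled. Where 2 values stand together, the library labelled control comes before the library labelled Cxcl12-cKO.

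In the lesion, most UMIs of each of the 8 genes lay in fibroblast-like and osteoblast-like nuclei. Among the lesional cell classes, 6 of 8 members were highest in 1 of these classes in both libraries, the exceptions being Bgn and Prelp. The share of all genes highest in these classes was not counted. Under the Cxcl12-cKO label Bgn was at 120 CPM in endothelial-like, 117 CPM in osteoblast-like and 106 CPM in fibroblast-like nuclei. Fibroblast-like nuclei (4159 and 4070) were named by 7 or 8 of 8 fibroblast markers such as Col1a1 and Pdgfra, and no member was used for clustering or naming. They held 83.9% and 83.8% of all lesional Dcn UMIs, 74.1% and 80.2% of Bgn UMIs and 75.4% and 84.2% of Ogn UMIs. For Aspn the share was lower in the library labelled control, at 42.5% and 66.2%, with 41.9% and 23.4% held by the far fewer osteoblast-like nuclei.

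Dcn reached 530 CPM (518 to 542) in fibroblast-like nuclei of the control label and 472 CPM (461 to 484) in those of the Cxcl12-cKO label. A Dcn UMI was seen in 60.7% and 55.9% of these nuclei, and in 34.8% and 30.5% after thinning. Bgn stood at 89.0 and 106 CPM, Ogn at 62.4 and 57.4 CPM, and Lum at 40.3 and 32.6 CPM in the same nuclei. Fmod was at 19.6 and 17.7 CPM, Aspn at 14.1 and 10.5 CPM, Omd at 11 and 6.98 CPM and Prelp at 8.40 and 7.46 CPM. At least 1 member was detected in 76.4% and 74.0% of fibroblast-like nuclei, although the family made up only 0.0775% and 0.0711% of their UMIs.

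Parenchymal excitatory neuron-like nuclei were taken as a first comparison, and whether they express these genes was not tested. There Dcn stood at 4.50 and 4.56 CPM, and no other member exceeded 1.52 CPM. Because these nuclei were deep (median 17478 and 18389 UMIs), a Dcn UMI was still seen in 5.45% and 6.86% of them, falling to 0.601% and 0.443% after thinning. In lesional excitatory neuron-like nuclei Dcn was at 10.5 and 9.57 CPM. These nuclei were deep as well (median 13947 and 12781 UMIs), so their CPM understates what the same number of stray UMIs would give in shallow nuclei. Counted per nucleus, without scaling to depth, Dcn gave 0.158 and 0.128 UMIs in lesional excitatory neuron-like nuclei and 1.82 and 1.70 in fibroblast-like nuclei. The other members were 3.17 to 24.5 times as high per nucleus in fibroblast-like as in lesional excitatory neuron-like nuclei, with Lum under the control label at the lower end, and Aspn at 0 in the latter under the Cxcl12-cKO label. Lesional astrocyte-like nuclei (77.0 and 47.3 CPM), T cell-like nuclei (151 and 97.9 CPM) and myeloid-like nuclei (87.1 and 121 CPM) had Dcn levels between those of neurons and fibroblast-like nuclei. Per nucleus these were 0.328 and 0.228 UMIs in astrocyte-like, 0.289 and 0.17 in T cell-like and 0.233 and 0.366 in myeloid-like nuclei. These counts were nearer to the neurons than to fibroblast-like nuclei, but depth differed. Median depth was 1318 and 1360 UMIs in T cell-like and 2175 and 2379 UMIs in myeloid-like nuclei. The part of stray UMIs was not tested.

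**Figure D1:**
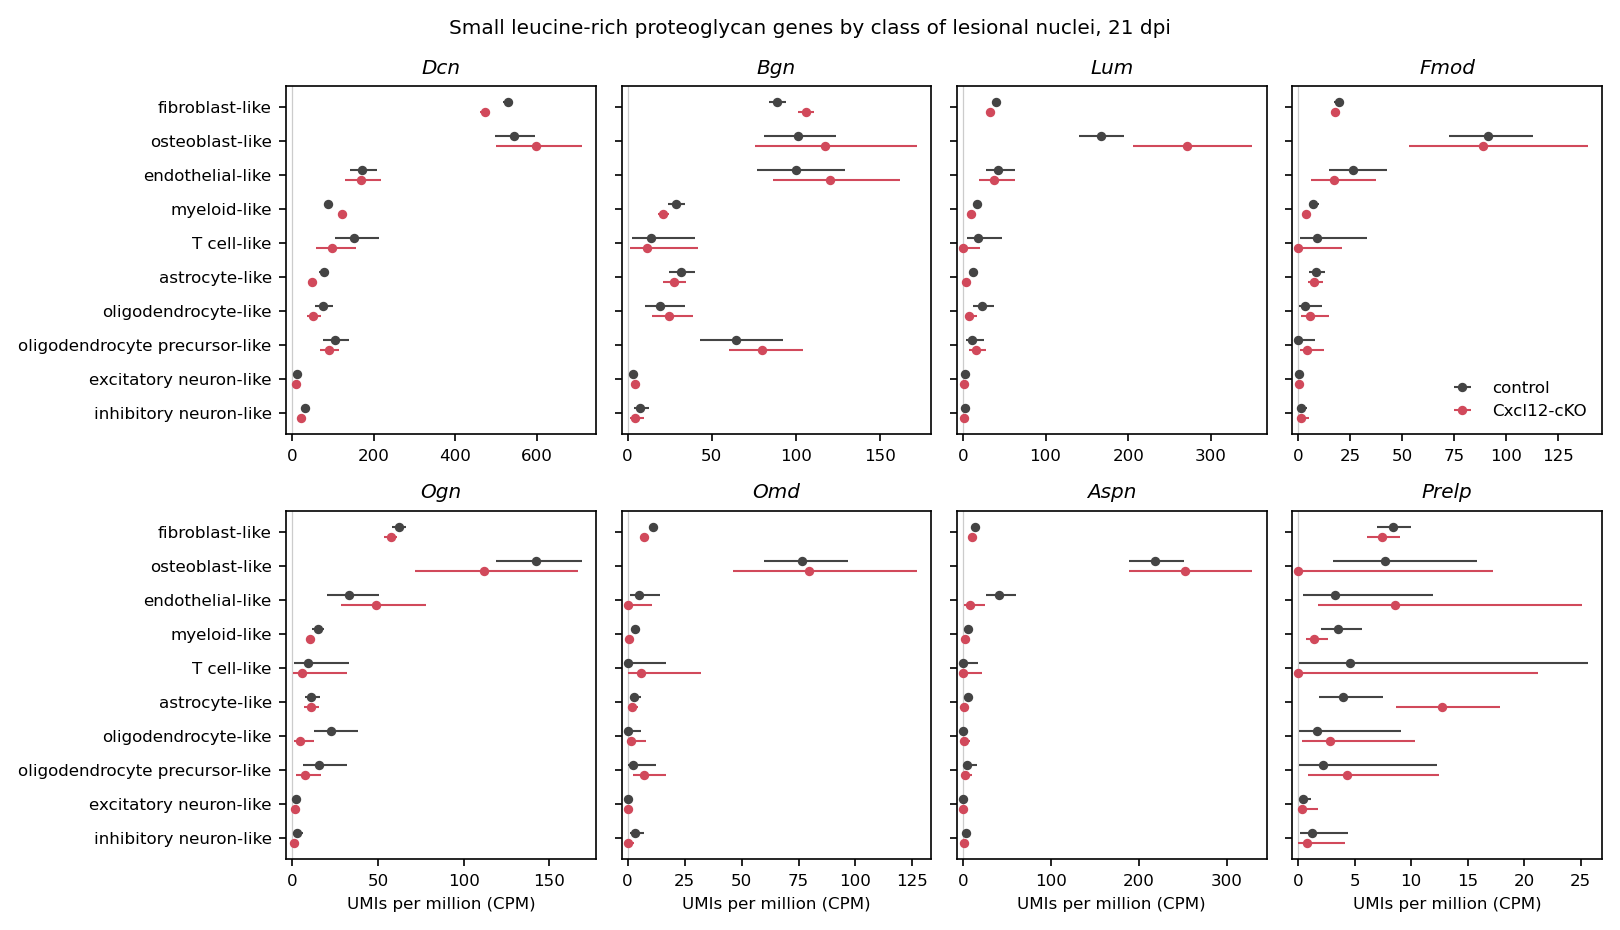
Level of each small leucine-rich proteoglycan (CPM) in the lesional cell classes shown, by library, with 95% Poisson intervals of counting error. Aspn, Lum, Fmod and Omd peak in osteoblast-like nuclei in both libraries, whereas Dcn is at a like level in fibroblast-like and osteoblast-like nuclei.

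Osteoblast-like nuclei carried the family most densely. They were found only in the lesion matrices, 342 under the control label and 84 under the Cxcl12-cKO label, and were named by 6 of 10 osteoblast markers with Bglap, Bglap2 and Sp7 among their leading genes. Of their UMIs, 0.135% and 0.152% came from the 8 members, and 14.6% and 9.52% of these nuclei held 4 or more members at once. In the library labelled control, 5 of 8 members were at least 1.5-fold higher than in fibroblast-like nuclei, where 19.0% of all genes were. In the library labelled Cxcl12-cKO the same 5 members, Aspn, Omd, Fmod, Lum and Ogn, were higher, where 30.2% of all genes were.

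Aspn stood furthest apart, at 218 CPM (189 to 251) and 252 CPM (189 to 329) in osteoblast-like nuclei against 14.1 and 10.5 CPM in fibroblast-like nuclei. Its log2 ratio was 3.95 (3.66 to 4.24) under the control label and 4.6 (4.11 to 5.05) under the Cxcl12-cKO label. Omd, the member known from bone, was at 76.7 and 79.4 CPM in osteoblast-like nuclei, with log2 ratios of 2.81 (2.38 to 3.22) and 3.54 (2.67 to 4.26). Fmod followed at 91.0 and 88.7 CPM, with log2 ratios of 2.22 and 2.36. Lum was at 167 and 271 CPM, with ratios of 2.05 and 3.07, and Ogn at 142 and 112 CPM, with ratios of 1.2 and 0.99.

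Dcn and Bgn did not share this pattern. Dcn was at 545 and 598 CPM in osteoblast-like nuclei, with log2 ratios to fibroblast-like nuclei of 0.04 (-0.09 to 0.17) and 0.34 (0.08 to 0.59). Bgn was at 101 and 117 CPM, with ratios of 0.19 (-0.14 to 0.49) and 0.17 (-0.49 to 0.71). Prelp was at 7 UMIs (7.67 CPM) under the control label and at 0 UMIs under the Cxcl12-cKO label, where a count of 0 allows up to 14 CPM. Set against late inner-like fibroblasts, described below, osteoblast-like nuclei had Aspn ratios of 2.26 and 3.40 and Omd ratios of 2.54 and 3.33. In that comparison Bgn was lower, at -1.07 (-1.41 to -0.77) and -0.74 (-1.40 to -0.20), whereas Dcn was higher, at 0.41 (0.26 to 0.56) and 0.89 (0.61 to 1.14). Between libraries the osteoblast-like levels of 6 members had intervals of the ratio that held 0 (Dcn 0.14, Bgn 0.23, Fmod -0.01, Ogn -0.32, Aspn 0.22 and Omd 0.08 on the log2 scale). Lum was 0.71 higher under the Cxcl12-cKO label, but 1 nucleus held 31 of its 58 UMIs there. Excitatory neuron markers summed to 1452 and 822 CPM in osteoblast-like nuclei, against 149 and 122 CPM in late inner-like fibroblasts, and the part of these transcripts in the member levels was not tested.

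Lesional fibroblast-like nuclei fell into 4 clusters made without the members. A dural and dural border-like cluster (1527 and 1072 nuclei) was named by 5 of 10 markers, clusters leptomeningeal-like A (1223 and 1162 nuclei) and B (383 and 485 nuclei) by 5 of 6 markers each, and a late inner-like cluster (1026 and 1351 nuclei) by 3 of 3 markers, Fgf13, Cdh18 and Sema3c. The family divided over them in opposite ways. Dcn was highest in the leptomeningeal-like clusters, and Bgn, Fmod, Aspn and Ogn in the late inner-like cluster.

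Dcn stood at 736 and 749 CPM in leptomeningeal-like A nuclei and at 837 and 673 CPM in leptomeningeal-like B nuclei. It was at 419 and 341 CPM in dural and dural border-like nuclei and at 409 and 325 CPM in late inner-like nuclei, and the intervals of the last 2 states overlapped within each library. Set against the other states, both leptomeningeal-like clusters together had a Dcn log2 ratio of 0.87 (0.81 to 0.94) and 1.13 (1.06 to 1.2). The same nuclei were lower in Aspn (ratios of -3.50 and -4.58), Ogn (-1.41 and -1.06), Fmod (-1.36 and -1.54) and Bgn (-0.89 and -0.99). The share of all genes past the fold was not counted for this comparison. Over both together, the ratios of Lum (-0.32 and -0.08), Omd (0.09 and 0.40) and Prelp (0.43 and 0.51) were all under 1.5-fold. For Lum this pooled a split, read after its values were seen at resolution 0.4. The cluster with 382 and 484 leptomeningeal-like B nuclei had Lum at 57.9 CPM (45.1 to 73.2) and 55.9 CPM (44.8 to 69). That with 672 and 597 leptomeningeal-like A nuclei had 16.6 and 10.6 CPM, and another, with 477 and 531, had 41.6 and 30.7 CPM. Late inner-like nuclei were at 64.3 and 33.8 CPM. Aspn was all but missing from both leptomeningeal-like clusters, with 8 and 3 UMIs in all, and none in the 485 leptomeningeal-like B nuclei of the Cxcl12-cKO label, where a count of 0 allows up to 1.94 CPM.

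Bgn reached 213 CPM (198 to 229) and 199 CPM (187 to 211) in late inner-like nuclei. In dural and dural border-like nuclei it was at 44.3 and 36.2 CPM, in leptomeningeal-like A nuclei at 40.1 and 38.7 CPM, and in leptomeningeal-like B nuclei at 106 and 126 CPM. The late inner-like interval lay clear of all others in both libraries, as it did for Fmod (57.1 and 35.1 CPM, at most 13.5 elsewhere) and for Aspn (45.4 and 24.0 CPM, at most 6.21 elsewhere). Ogn differed less, at 88.5 and 73.7 CPM in late inner-like and 73.1 and 66.3 CPM in dural and dural border-like nuclei, and was at 34.4 and 37.6 CPM in leptomeningeal-like A and 15.2 and 24.6 CPM in leptomeningeal-like B nuclei.

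Against the other 3 states together, late inner-like nuclei had Aspn log2 ratios of 3.41 (2.94 to 3.93) and 3.13 (2.53 to 3.83). The Fmod ratios were 2.88 (2.51 to 3.27) and 2.19 (1.79 to 2.61), and those of Bgn 2.10 (1.94 to 2.26) and 1.93 (1.77 to 2.09). In the library labelled control 6 of 8 members were higher by the fold, beside 14.7% of all genes, and 0 were lower, beside 14.1%. In the library labelled Cxcl12-cKO 4 of 8 were higher, beside 12.5%, and 1, Dcn, was lower, beside 12%. Lum and Prelp made the difference, with ratios of 0.98 and 1.42 under the control label and of 0.08 and 0.07 under the Cxcl12-cKO label. Omd was highest in leptomeningeal-like A nuclei in both libraries, with an interval that overlapped that of the late inner-like state, at 9.48 and 3.94 CPM in dural and dural border-like, 14.4 and 9.54 CPM in leptomeningeal-like A, 2.53 and 5.17 CPM in leptomeningeal-like B and 13.1 and 8.06 CPM in late inner-like nuclei.

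**Figure D2:**
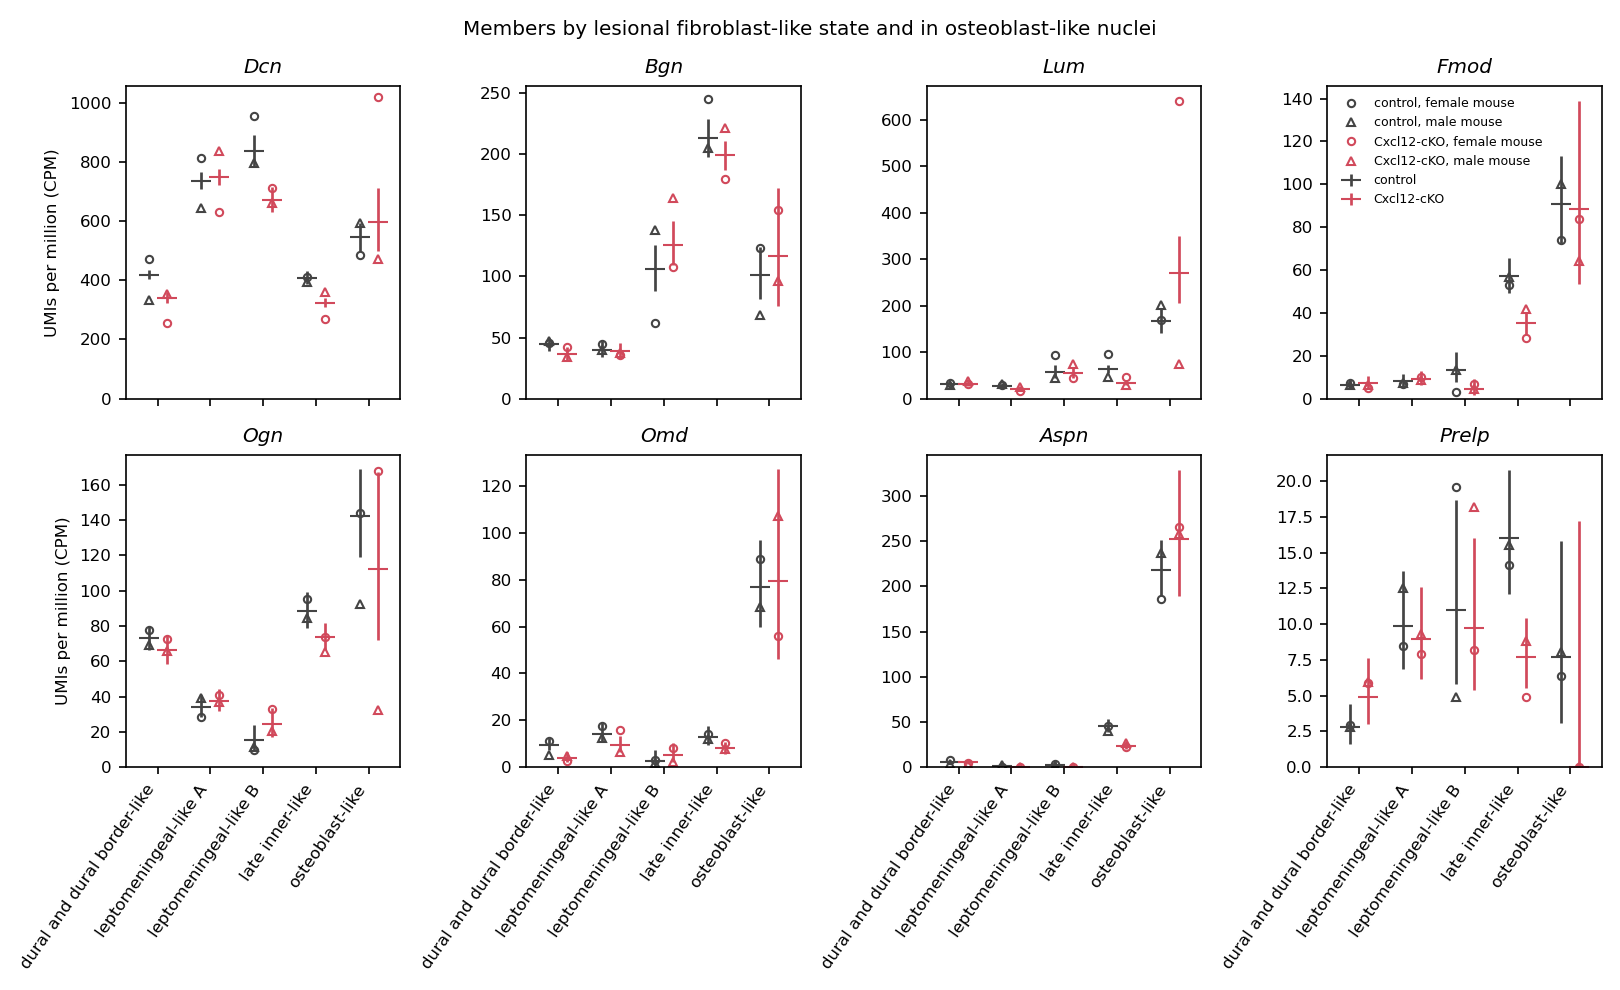
Level of each member (CPM, each panel from 0) in the 4 lesional fibroblast states and in osteoblast-like nuclei, for both libraries, with 95% Poisson intervals of counting error. Dcn is highest in the leptomeningeal-like states among fibroblasts, Bgn in the late inner-like state, and Aspn in osteoblast-like nuclei, where it stands at 218 and 252 CPM.

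The balance of the closely related biglycan and decorin, read as the share of Bgn in the summed Bgn and Dcn UMIs, set the states apart within each library. Bgn made up 5.16% and 4.92% of the pair in leptomeningeal-like A, 9.56% and 9.61% in dural and dural border-like and 11.2% and 15.8% in leptomeningeal-like B nuclei. In late inner-like nuclei it was 34.3% (32.2 at the lower bound) and 38.0% (36.2 at the lower bound), above the other 3 states in both libraries. Osteoblast-like nuclei stood at 15.6% and 16.3%.

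Outside the fibroblasts, oligodendrocyte precursor-like nuclei held a share of 47.1% (37.8 to 56.4) under the Cxcl12-cKO label, and of 38.2% (27.2 to 50.0) under the control label. Their Bgn level, 64.1 and 80.0 CPM, rested on 29 and 56 UMIs in 94 and 139 nuclei. The cluster also held 1254 and 1649 CPM of Col1a1, Col1a2 and Col3a1, against 733 and 260 CPM in astrocyte-like nuclei, and 509 and 881 CPM of the list of dividing cells. At resolution 0.5, read after these values were seen, a dividing cluster stood apart, and 76 and 101 precursor-like nuclei remained, with 93.5 and 150 CPM of the dividing list and 537 and 494 CPM of the collagens. Their Bgn was at 32.1 and 46.7 CPM, and its share of the pair at 40.0% (22.7 to 59.4) and 50.0% (34.9 to 65.1). The part of other cells in these levels was not tested. Endothelial-like nuclei followed at 36.7% and 41.6%, with Bgn at 100 and 120 CPM. Over all fibroblast-like nuclei the share was 14.4% and 18.3%.

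**Figure D3:**
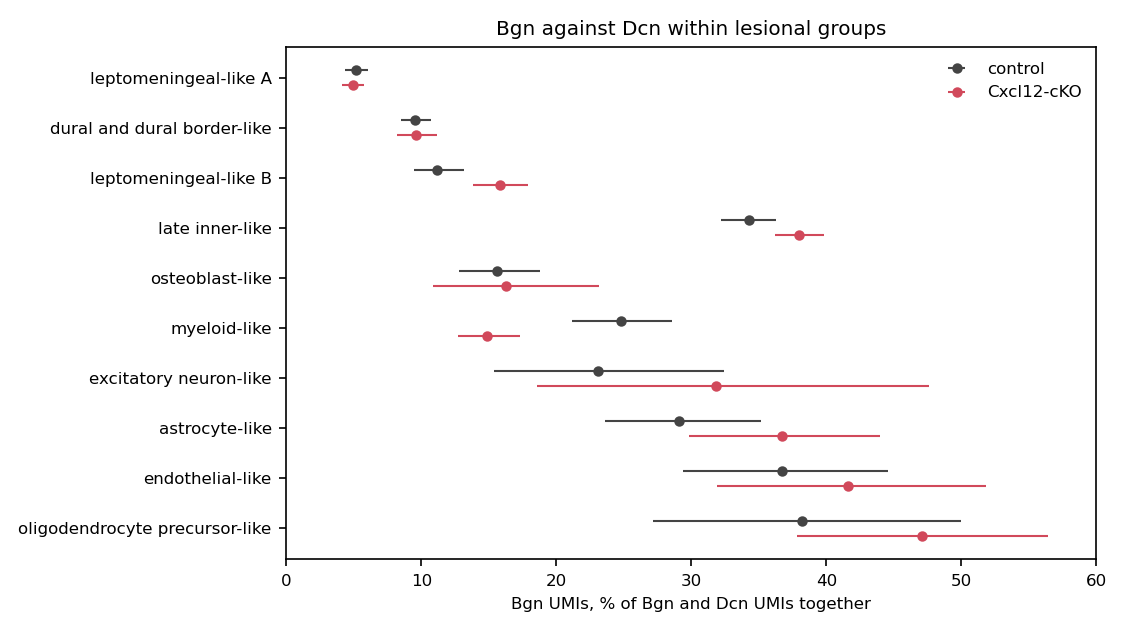
Share of Bgn in the summed Bgn and Dcn UMIs (percent, with 95% binomial intervals of counting error) by lesional group and library. Late inner-like nuclei, at 34.3% and 38.0%, lie above the other fibroblast states, and oligodendrocyte precursor-like and endothelial-like nuclei are as high or higher.

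A finer clustering split the late inner-like nuclei. Its cluster 6 (252 and 119 nuclei, led by Sox6, Cpa6 and Ccn5, and without a name by the marker rule) held Aspn at 105 (84 to 129) and 114 (83.8 to 151) CPM and Ogn at 125 and 133 CPM. Its cluster 1 (612 and 933 nuclei, led by Nav2, Eln and Erg, also without a name) held Aspn at 22.9 and 13.2 CPM and Ogn at 75.1 and 64.7 CPM, with Bgn at 251 and 229 CPM. A further 150 and 269 late inner-like nuclei fell in cluster 3, unnamed too, with 419 and 345 dural and dural border-like nuclei. Cluster 3 held Aspn at 20.7 and 19.6 CPM and Bgn at 64.7 and 74 CPM. Aspn in cluster 6 thus lay between cluster 1 and the osteoblast-like nuclei in both libraries. Another cluster of this partition, leptomeningeal-like and led by Prg4 and Kng2 (518 and 578 nuclei), held Dcn at 884 and 946 CPM and Ogn at only 13.9 and 8.64 CPM. These clusters were described after their values were seen.

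Over all lesional fibroblast-like nuclei, members differed little between libraries. The log2 ratio of Cxcl12-cKO over control was at least 1.5-fold for 1 of 8 members, Omd, which was lower (-0.65, -1.03 to -0.28), beside 4.19% of the 16557 genes with at least 20 UMIs. Omd fell short of the fold in each pair of mice, at -0.41 in female (-0.96 to 0.12) and -0.42 in male mice (-1.07 to 0.22), and at -0.505 without nuclei holding UMIs of both sexes. No member was higher by the fold, beside 5.31%. The median of the 8 ratios was -0.17, against 0.00 for all genes.

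Dcn was lower at -0.17 (-0.21 to -0.12), Lum at -0.30 (-0.48 to -0.13) and Aspn at -0.43 (-0.74 to -0.12), and Bgn was higher at 0.25 (0.14 to 0.36). For Fmod (-0.15), Ogn (-0.12) and Prelp (-0.17) the interval held 0. Late inner-like nuclei, the state highest in Bgn, made up 24.7% of fibroblast-like nuclei under the control label and 33.2% under the Cxcl12-cKO label. The share also differed between mice, at 17.8% in the female and 28.6% in the male of the control label. It was 31.8% and 35.5% in those of the Cxcl12-cKO label. With the 4 states given equal shares in both libraries, the Bgn ratio was -0.003. The part of fibroblast makeup in the Bgn difference was not tested.

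**Figure D4:**
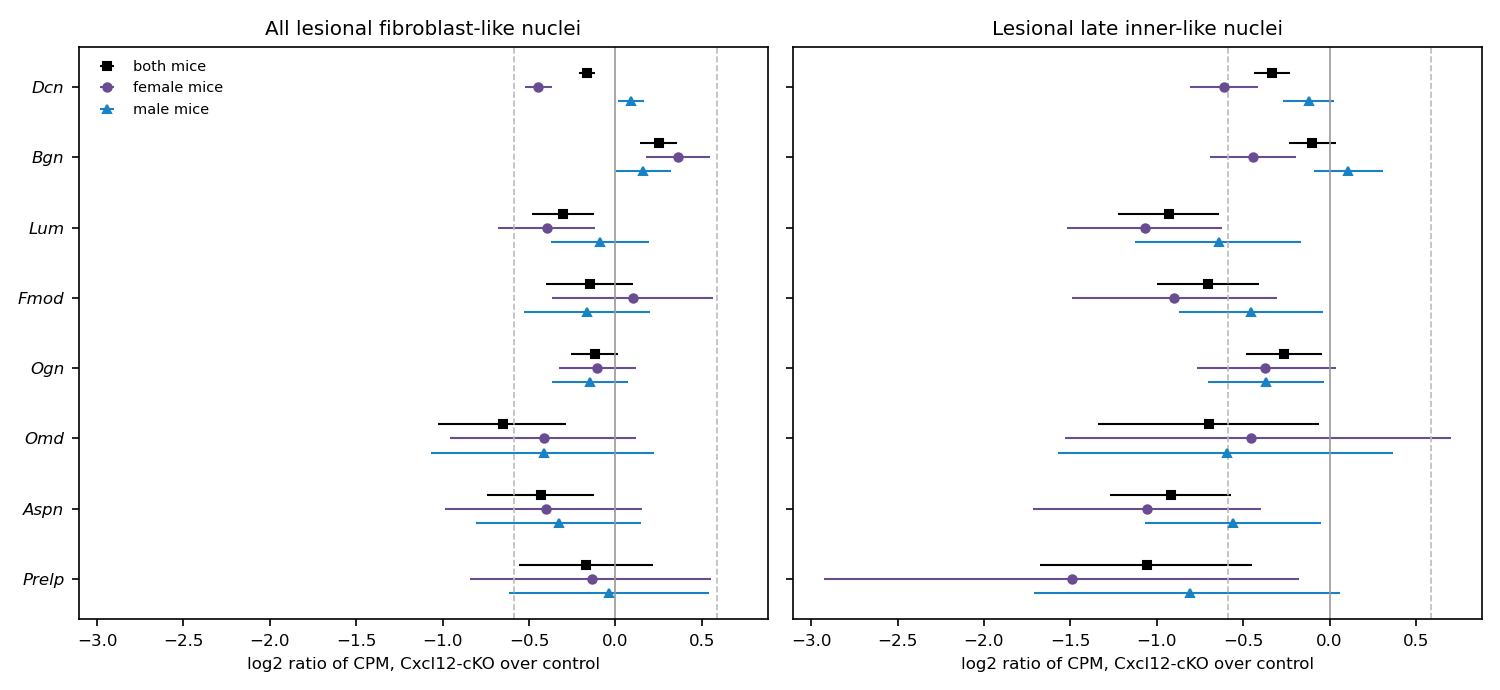
Log2 ratio of CPM, library labelled Cxcl12-cKO over library labelled control, for each member in all lesional fibroblast-like nuclei and in late inner-like nuclei, with 95% intervals of counting error. In late inner-like nuclei all 8 estimates lie below 0, from -0.10 for Bgn to -1.05 for Prelp.

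Within the late inner-like state the libraries were further apart. There 5 of 8 members, Lum, Fmod, Aspn, Omd and Prelp, were lower by the fold under the Cxcl12-cKO label, beside 6.12% of the 13628 genes with at least 20 UMIs, and 0 were higher, beside 6.17%. The count was 3 without nuclei holding UMIs of both sexes (Lum, Aspn and Prelp) and 3 in male mice alone (Lum, Omd and Prelp), while in female mice alone it was 5, with Dcn in place of Omd. The share of all genes past the fold was not counted in these subsets, which hold fewer UMIs. The median ratio of the 8 was -0.70, against -0.01 for all genes. Lum was at 64.3 CPM (221 UMIs) under the control label and 33.8 CPM (180 UMIs) under the Cxcl12-cKO label, a log2 ratio of -0.93 (-1.22 to -0.64). Aspn was at 45.4 and 24.0 CPM (-0.92, -1.27 to -0.57), and Fmod at 57.1 and 35.1 CPM (-0.70, -1.0 to -0.41).

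Prelp, at 16.0 and 7.69 CPM (-1.05, -1.68 to -0.45), and Omd, at 13.1 and 8.06 CPM (-0.70, -1.34 to -0.06), rested on 55 and 45 UMIs or fewer in each library. Dcn was lower by less, at -0.33 (-0.44 to -0.23), and Ogn at -0.27 (-0.48 to -0.04). Bgn was at -0.10 (-0.24 to 0.04). Shares of nuclei went the same way, with a Lum UMI in 15.4% and 11.4% of late inner-like nuclei and in 6.46% and 3.98% after thinning, although the Cxcl12-cKO nuclei were the deeper ones (median 3083 and 3465 UMIs).

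Several other measures moved with this difference. The osteoblast marker list summed to 1240 CPM (9 of 10 genes with a UMI) in late inner-like nuclei of the control label and to 775 CPM (6 of 10, with Ibsp, Bglap2, Dmp1 and Mepe at 0) in those of the Cxcl12-cKO label, and osteoblast-like nuclei numbered 342 and 84. The fibroblast marker list summed to 9113 and 6998 CPM. Cluster 6 of the finer partition, high in Aspn, gave 252 and 119 nuclei. Without cluster 6 the late inner-like median was -0.58 and 4 of 8 members were lower by the fold, with the share of all genes not counted there. The part of the other measures in the result was not tested.

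The direction was shared by both mice, which were told apart by sex-linked transcripts. In nuclei of the female mice Lum was at 96.4 and 45.9 CPM (-1.07), Aspn at 45.5 and 21.9 CPM (-1.05), Fmod at 53.1 and 28.4 CPM (-0.90) and Prelp at 14.1 and 4.92 CPM (-1.49). In nuclei of the male mice Lum was at 46.6 and 29.8 CPM (-0.64), Aspn at 40.3 and 27.3 CPM (-0.56), Fmod at 56.9 and 41.6 CPM (-0.45) and Prelp at 15.5 and 8.82 CPM (-0.81). Omd, at -0.46 and -0.59, had intervals that held 0 in each mouse pair. Bgn was lower in the female pair (-0.45, -0.69 to -0.19) and not in the male pair (0.11, -0.09 to 0.31).

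The mice also differed within a library. Lum in late inner-like nuclei was higher in the female than in the male mouse of each library, by 1.05 (0.60 to 1.5) and 0.62 (0.15 to 1.10) on the log2 scale. Dcn over all fibroblast-like nuclei was at 583 CPM in the female and 467 CPM in the male mouse of the control label, and at 427 CPM in the female and 496 CPM in the male mouse of the Cxcl12-cKO label. The spread between mice of 1 genotype was thus as large as the difference between libraries for Dcn. The same held for Lum in late inner-like nuclei, where the male mouse of the control label (46.6 CPM) and the female mouse of the Cxcl12-cKO label (45.9 CPM) stood together.

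In the other states fewer members differed. In dural and dural border-like nuclei 1 of 8 members was higher by the fold under the Cxcl12-cKO label, beside 6.07% of genes, and 1 was lower, beside 4.69%. The lower member was Omd, at 9.48 and 3.94 CPM (-1.23, -2.16 to -0.45). In female mice it was at 11.2 and 2.54 CPM, and in male mice at 5.13 and 4.85 CPM. The higher member was Prelp, on 17 and 20 UMIs (0.82, -0.18 to 1.85). In leptomeningeal-like A nuclei 0 of the 7 members with at least 20 UMIs were higher, beside 5.23%, and 1 was lower, beside 5.88%. This was Omd, at 14.4 and 9.54 CPM (-0.59, -1.26 to 0.06), with an interval that held 0. In leptomeningeal-like B nuclei, where 6 members had at least 20 UMIs, 1 was higher, beside 7.02%, and 1 lower, beside 7.29%. Ogn was the higher one, at 18 and 38 UMIs (0.68, -0.15 to 1.59), and Fmod the lower one, at 16 and 7 UMIs (-1.52, -3.10 to -0.21). Dcn in leptomeningeal-like A nuclei, where it is abundant, was nearly the same in both libraries (0.02, -0.05 to 0.10).

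Across regions, all 8 members were higher by the fold in lesion than in parenchyma nuclei in both libraries, beside 39.4% of genes under the control label and 42.8% under the Cxcl12-cKO label. The log2 ratio was 5.76 and 5.67 for Dcn, 5.59 and 5.07 for Bgn and 4.31 and 4.32 for Ogn. The lowest ratio was that of Prelp under the control label, at 3.28, and that of Omd under the Cxcl12-cKO label, at 2.76. These ratios compared nuclei of unlike makeup, since few parenchyma nuclei were fibroblast-like.

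The 51 and 50 fibroblast-like nuclei of the parenchyma were compared with all lesional fibroblast-like nuclei together, not with single lesional states. Of them, 30 and 29 fell in the fibroblast-like cluster led by Slc47a2 and 21 and 21 in that led by Slc6a20a. Dcn was at 134 CPM (90.4 to 191) and 159 CPM (110 to 223), below lesional fibroblast-like nuclei by log2 ratios of -1.96 (-2.55 to -1.47) and -1.55 (-2.10 to -1.08). Prelp was higher, at 35.7 CPM (8 UMIs) and 46.9 CPM (10 UMIs), with ratios of 2.17 (0.84 to 3.11) and 2.71 (1.55 to 3.58). Omd was also higher by the fold (1.16 and 1.59), on 5 and 4 UMIs and with intervals that held 0. Lum (-1.365 and 0.11, on 3 and 7 UMIs) and Fmod (-0.81 and 1.33, on 2 and 9 UMIs) differed in sign between the libraries. Ogn was at 80.4 and 103 CPM (0.41 and 0.88) and Bgn at 40.2 and 65.6 CPM (-1.07 and -0.64), while Aspn was at 0 and 3 UMIs. The same nuclei were higher in Slc47a1, a transporter gene of the dural border list, at 1519 and 1228 CPM against 761 and 500 CPM in the lesion, and lower in Col1a1, at 152 and 225 CPM against 685 and 669 CPM. The whole dural and dural border list summed to 6779 and 6330 CPM, against 4874 and 4551 CPM in the lesion. The leptomeningeal list summed to 1957 and 2429 CPM, against 1634 and 1661 CPM. The myeloid marker list summed to 49.2 and 84.4 CPM in them (4 of 9 genes with a UMI in each library, with Csf1r, Sall1 and Mrc1 at 0 in both), against 120 and 149 CPM in lesional fibroblast-like nuclei. The astrocyte list summed to 572 and 760 CPM, against 564 and 661 CPM in the lesion.

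Aspn was also found where fibroblasts were few. The parenchymal endothelial-like cluster, which included mural cells, held Aspn at 4 UMIs in 17 nuclei (123 CPM) and 10 UMIs in 25 nuclei (178 CPM), with Dcn at 0 and 2 UMIs. Split after these values were seen by the mural marker list (Rgs5, Cspg4, Notch3 and others), the 26 nuclei of both libraries with at least 3 mural UMIs held all 14 Aspn UMIs, at 237 CPM (130 to 397). They held 0 Dcn UMIs, which allows up to 50.8 CPM. The 16 nuclei below 3 mural UMIs held 0 Aspn UMIs, which allows up to 102 CPM. In the lesion, nuclei of this cluster with at least 3 mural UMIs held Aspn at 122 CPM (22 UMIs in 57 nuclei, 76.2 to 184) under the control label and at 33.1 CPM (3 UMIs in 25 nuclei, 6.83 to 96.7) under the Cxcl12-cKO label. The others held it at 7 CPM (3 UMIs in 152 nuclei) and at 0 UMIs in 88 nuclei, which allows up to 11.6 CPM. Dcn was at 193 and 232 CPM in the first of these groups and at 163 and 147 CPM in the second. Bgn and Prelp, at 4 UMIs each, were also found with the mural markers in the parenchyma.

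Within nuclei, pairs of members were set against the product of their shares of nuclei in each state and library. Of the 28 pairs, 27 were above the product of the shares when all UMIs were used (median ratio 1.29), and 15 of 28 after thinning to 1000 UMIs (median 1.02). After thinning, 16 pairs had at least 5 nuclei from the shares, and 7 of these were above the product. Fmod and Ogn were above the product in both readings, with 136 nuclei observed and 83.3 from the shares (8 of 8 strata above). After thinning this pair had 19 nuclei against 10.2 (6 of 8 strata). Omd and Prelp were found together in 6 nuclei, with 6.25 from the shares. Late inner-like nuclei held 4 or more members in 7.02% and 4.89% of nuclei, against at most 1.31% in any other state.

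The genes most like each member across 26 lesional groups (fibroblast states and cell classes of each library with at least 50 nuclei) were sought among 10561 genes by Pearson correlation of log2(CPM + 1), as a description, since groups share libraries. Dcn was most like Cped1 (0.972), Gxylt2 (0.951) and Zic1 (0.95), the last a transcription factor gene of meningeal fibroblasts. Bgn was most like Cald1 (0.934), which encodes the actin-binding caldesmon, Fkbp9 (0.929) and Smtn (0.926), which encodes smoothelin of smooth muscle. Lum came with Mmp2 (0.923), a gelatinase gene, Ppp4r1l-ps (0.916) and Rcn3 (0.904). Ogn came with Fkbp10 (0.927), a collagen chaperone gene, Calu (0.925) and Zfhx4 (0.916).

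The lower members had weaker matches. Fmod was most like Gpx3 (0.872), Tspan18 (0.866) and Sparc (0.861), and Aspn most like Mylk (0.834), which encodes myosin light chain kinase, Gpx3 (0.823) and Esr1 (0.802). Omd was most like Tmem263 (0.838), Gm13274 (0.836) and Igsf10 (0.834), and Prelp most like D630003M21Rik (0.850), Six5 (0.843) and Prelid3b (0.832). Among the members, Lum and Ogn were the most alike (0.866), Fmod and Aspn stood at 0.801, the chromosomal neighbours Aspn and Omd at 0.724, and Aspn and Prelp at 0.144.

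Other genes of the pathway were read from lists. Of 9 fibrillar collagen genes, the ligands of the family, 8 had enough UMIs to be compared, and in osteoblast-like over fibroblast-like nuclei 8 and 7 of them were higher by the fold, with Col5a1 at 508 against 98.6 CPM under the control label and 518 against 130 CPM under the Cxcl12-cKO label. Between libraries none passed the fold over all fibroblast-like nuclei, with Col5a3 highest (0.54) and Col1a2 lowest (-0.47, 1979 and 1430 CPM). In late inner-like nuclei 3 of 8 were lower and 0 higher, with Col11a2 lowest at 79.8 and 44.6 CPM (-0.84) and a median of -0.27.

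Of the other leucine-rich repeat proteoglycans and relatives, 6 of 9 were compared between libraries, with 2 higher and 1 lower over all fibroblast-like nuclei, from Podnl1 (0.86, 1.61 and 2.94 CPM) to Chad (-1.16, 2.80 and 1.23 CPM), which encodes chondroadherin. Podnl1, which encodes a podocan-like protein, was the gene of this list highest in osteoblast-like nuclei, at 78.9 and 88.7 CPM, with log2 ratios to fibroblast-like nuclei of 5.59 and 4.93. In late inner-like nuclei 1 of 6 was higher (Tsku, 0.73) and 1 lower (Chad, -2.22).

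Of the genes that make chondroitin and dermatan sulfate chains, 20 of 21 were compared over all fibroblast-like nuclei, and 1 was higher (B3galt6, 0.61) and 1 lower (Chst3, -0.70). In late inner-like nuclei 1 of 16 was higher (Chst15, 1.00, 4.95 and 10.1 CPM) and 0 were lower. Chsy3, a chondroitin synthase gene, was the highest of the list in osteoblast-like nuclei, at 686 and 691 CPM against 125 and 181 CPM in fibroblast-like nuclei. Of the keratan sulfate genes 4 of 6 were compared, with 0 past the fold over all fibroblast-like nuclei (Chst1 highest at 0.20, Chst2 lowest at -0.56) and 1 higher (Chst1, 0.65) and 2 lower (Chst2, -0.88, the lowest) in late inner-like nuclei.

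Among receptors and ligands bound by the members, 0 of 12 were higher and 1, Kdr, was lower (-0.63) over all fibroblast-like nuclei, and 0 of 11 passed the fold in late inner-like nuclei. Among proteases that process or cleave the members, 1 of 10 passed the fold, Mmp3, which encodes stromelysin 1. It was at 12.5 CPM under the control label and 53.8 CPM under the Cxcl12-cKO label over all fibroblast-like nuclei (2.10), and at 7.86 and 63.4 CPM in late inner-like nuclei (2.99). Mmp13, a collagenase gene of bone, was the protease highest in osteoblast-like over fibroblast-like nuclei, at 850 and 1490 CPM against 69.2 and 87.6 CPM.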

How the data were processed

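Single nuclei of lesion and parenchyma, mixed 75% to 25%, were profiled by Chromium 3′ chemistry. The deposited matrices hold UMI counts per gene and nucleus, made by the authors with Cell Ranger 9.0.0 against GRCm39, filtered for barcodes and split by tag. 0 columns were left unused. Of 23489 barcodes, 21743 were kept (758 to 36243 UMIs, 585 to 6418 genes, at most 8.75% mitochondrial UMIs, after the 2.5 and 97.5 percentiles).

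Nuclei were clustered in scanpy 1.11.5 (3000 variable genes, 30 components, Leiden 0.10.2 at resolution 0.25; Python 3.11.15), without the 8 members, Cxcl12, sex-linked and mitochondrial genes, and fibroblast-like nuclei were clustered again. Clusters were named from marker lists with at least 3 markers up. The members, marker and pathway lists were chosen with earlier results of these data known, and Dnajc5b and Slco4a1 of the dural list were taken from them. Names were rebuilt and may differ from those of the study. Scrublet scored doublets, which were removed only as an alternative.

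CPM were computed from the deposited counts, with exact Poisson intervals, shares with exact binomial intervals, and ratios with conditional binomial intervals after adding 0.5 to each sum, all at 95%, covering counting error only. Genes with at least 20 summed UMIs were called where they differed by at least 1.5-fold, with no test. A count of 0 allows 3 counts. Named genes were the 8 members, the 3 most alike genes of each, and the extremes of each pathway list. Others (Cxcl12, cluster-leading genes, Slc47a1, Col1a1, Csf1r) were chosen after their values were seen. Ratio intervals were run on simulated Poisson sums, the model they assume. Such sums hold no clumping of UMIs in single nuclei, so the run does not show how the intervals hold for clumped counts. The reference tables were of GRCm38.p6, so no coordinates of GRCm39 were used.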

Additional observations from a re-analysis of the deposited data

Results flagged for a closer look

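Female and male mice were compared for the library difference of each member in each state and in osteoblast-like nuclei, 48 pairs in all, and 3 stood out because the intervals of the female and of the male log2 ratio (Cxcl12-cKO over control) lay on opposite sides of 0. The difference itself was not tested. For Dcn in all fibroblast-like nuclei, the ratio was -0.45 for females and 0.09 for males, a difference of -0.535. For Dcn in leptomeningeal-like A nuclei it was -0.365 and 0.38, a difference of -0.74. For Lum in osteoblast-like nuclei it was 1.93 in the female mice (170 and 642 CPM, from 168 and 23 nuclei) and -1.33 in the male mice (201 and 75.1 CPM, from 93 and 37 nuclei), a difference of 3.26. In that last case 1 nucleus held 31 of the 46 UMIs of the female mouse labelled Cxcl12-cKO.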

How the results depend on the processing

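All 8 members were higher by the fold in the lesion under every alternative tried. Late inner-like ratios of Lum (-1.21 to -0.64), Prelp (-1.49 to -0.81), Fmod (-0.90 to -0.45), Aspn (-1.06 to -0.56) and Omd (-0.96 to -0.46) stayed below 0 in 14 of 14 alternatives, 2 of them added after the data were seen. The count of members lower by the fold there was 3, in place of 5, without nuclei holding UMIs of both sexes and in male mice alone. Over all fibroblast-like nuclei that count was 0, in place of 1, without both-sex nuclei, in female mice alone and in male mice alone, and 2 with classes taken from each nucleus's own markers and with equal shares of states. For these alternatives the share of all genes past the fold was not counted. The Dcn ratio turned to 0.088 in male mice alone, and the Bgn ratio to -0.003 with equal shares of states. With both leptomeningeal-like clusters joined, 5 members were highest in late inner-like nuclei in both libraries, and 3 without a barcode filter or without the highest 10% of Scrublet scores. Thinning took co-detected pairs from 27 to 15. With at least 100 UMIs, genes past the fold were 1.96% higher and 1.7% lower in fibroblast-like nuclei (5.31% and 4.19% with at least 20) and 2.31% and 2.42% in late inner-like nuclei (6.17% and 6.12%). Causes were not tested. Of the values for single members, 193 moved by less than the counting error, 17 by more, and 2 turned. Members highest in fibroblast-like or osteoblast-like nuclei numbered 5 to 7 (6 in the report). No paired analysis was possible because no result comes from a test and the labels give 1 library per genotype. The female and the male mice, told apart by transcripts, are set side by side in the report. Depth limits Omd and Prelp most.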

Other observations

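Prelp, a member low in lesional fibroblasts, was counted in lesional astrocyte-like nuclei at 9 UMIs (3.96 CPM, 1.81 to 7.52) in 533 nuclei of the library labelled control and at 32 UMIs (12.7 CPM, 8.70 to 17.9) in 521 nuclei of the library labelled Cxcl12-cKO. In the parenchyma, astrocyte-like nuclei held 2 and 3 Prelp UMIs (10.9 and 13.0 CPM). Over the same lesional nuclei Dcn, Lum and Aspn went the other way, from 77.0 to 47.3 CPM, from 12.3 to 4.37 CPM and from 6.16 to 0.795 CPM.

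Dcn in lesional myeloid-like nuclei, 87.1 and 121 CPM, came in part from few nuclei. Those with at least 5 Dcn UMIs, 16 and 28, held 30.5% and 54.1% of the UMIs, 1 of them 185. Their median Scrublet score was 0.229 and 0.234, against 0.0161 and 0.0207 in the rest, their median depth 6473 and 6424 UMIs, against 2164 and 2356, and their summed Col1a1, Col1a2 and Col3a1 level 3608 and 1727 CPM, against 867 and 463 CPM. Without them myeloid-like Dcn was at 61.9 and 57.1 CPM, so the order of the libraries turned. These nuclei were chosen after their values were seen.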
